A study of Mus musculus with 70 samples.

Results

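Integrins are the adhesion receptors with which T cells leave the blood, crawl and stay in a tissue, and 10 genes for integrin subunits were followed here in mouse regulatory T cells (Tregs) from 6 tissues. The genes were taken from a fixed list of names, Itgae, Itgav, Itgb8, Itga4, Itgb7, Itgb1, Itgal, Itgb2, Itga6 and Itgb3, each matched to its Ensembl gene in the count table. They are 10 of 53465 gene IDs in that table and 10 of 13173 protein-coding genes that passed a filter on low counts, so all 10 were tested. Their levels were compared over 14 groups of sorted Tregs in the 67 libraries with more than 1000000 counts. The list was chosen with earlier results of these data known, so its shares of calls beside those of all genes are a description.

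All cells came from 5 male mice aged 16.6, 17.1, 17.4, 18.1 and 18.6 weeks that carried the Foxp3tm4(YFP/icre)Ayr allele on the B6.129(Cg) background, in which a YFP and Cre fusion is made from the Foxp3 locus, so that the YFP marks Tregs and every group carries the same allele. Tregs of blood, spleen, lungs, visceral adipose tissue (VAT), colon and skin were sorted as ST2+ CD44hi and ST2- CD44hi cells, where ST2 is the receptor for interleukin-33 and high CD44 marks effector Tregs. Spleen and lungs also gave ST2- CD44lo CD62L+ cells, which are central Tregs. No mouse was treated, no group is a knockout, and CD4 T cells of spleen and lungs, but not of the other tissues, were enriched on magnetic beads before the sort. Each library was made by SMART-Seq v4 amplification from at most 220 cells, so a level is a mean over a small pool of cells from 1 mouse, and fewer cells with a transcript cannot be told apart from less transcript per cell.

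An integrin is a pair of an alpha and a beta subunit, and the pair decides what it binds. Itgae codes for CD103, which pairs with the beta subunit from Itgb7 and holds lymphocytes at E-cadherin on epithelium. Itga4 codes for the alpha subunit of the receptors for VCAM-1 and, with Itgb7, for the gut addressin MAdCAM-1. Itgav pairs with several beta subunits, among them that of Itgb8, and this pair frees TGF-beta from its latent form, a step for which Tregs are known. Itgal and Itgb2 code for LFA-1, the leukocyte receptor for ICAM-1. Itga6 and Itgb1 together bind laminin, Itgb1 also pairs with Itga4 and other alpha subunits, and Itgb3 pairs with Itgav or, on platelets, with Itga2b.

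In the GRCm38 annotation the alpha subunit genes lay on 3 chromosomes. Itga4 (chr2:79255426-79333123, plus strand), Itgav (chr2:83724397-83806916, plus strand) and Itga6 (chr2:71745616-71858416, plus strand) shared chromosome 2. RefSeq promoters matched 5 of the 10 genes. Those of Itga4 and Itgav, both on that chromosome, are shown because the 2 genes differed in opposite directions between skin and every other tissue. Each sequence holds the 250 bases before the RefSeq start on the plus strand of GRCm38.p6, chr2:79255176-79255425 for Itga4 and chr2:83724147-83724396 for Itgav, and the capitals in Itga4 mark overlapping matches to a RUNX and a KLF and SP motif.
Itga4: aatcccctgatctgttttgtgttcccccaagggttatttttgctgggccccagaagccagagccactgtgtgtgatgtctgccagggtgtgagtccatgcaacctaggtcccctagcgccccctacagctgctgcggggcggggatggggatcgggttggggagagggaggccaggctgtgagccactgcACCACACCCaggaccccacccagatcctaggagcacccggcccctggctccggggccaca
Itgav: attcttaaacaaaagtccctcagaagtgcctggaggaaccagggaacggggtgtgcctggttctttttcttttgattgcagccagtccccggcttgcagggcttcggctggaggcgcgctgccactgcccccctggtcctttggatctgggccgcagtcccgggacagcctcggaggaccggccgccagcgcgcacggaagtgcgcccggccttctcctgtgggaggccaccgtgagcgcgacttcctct
The capitals span bases 191 to 199 of the Itga4 window. They hold TGTGGT, a RUNX motif, on the minus strand, 60 bases before the start, and CCACACCC, a KLF and SP motif, on the plus strand, 59 bases before the start. Among 32851 mouse promoter windows of the same length, 14% held the RUNX letters and 3.2% the KLF and SP letters on either strand. Neither these nor the other motifs searched on both strands were found in the windows of Itgav, Itgb8, Itgb7 or Itgb1. The others were TGANTCA (AP-1; 6.75% of windows), AGATAA for the factors of the GATA family (9.99%), CCGGAAGT (ETS; 2.88%), TTCNNNGAA (STAT; 7.02%) and GTCTAGAC (SMAD; 0.167%). The Itgav window had 64.4% G and C and 18 CpG pairs against 64.0% and 6 in Itga4, beside medians of 52.4% and 6 over all windows. A match is a run of letters and was not tested for binding.

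Levels are given as normalised CPM (counts per 1000000), and levels of different genes are compared only as CPM per kilobase of exon. The 67 libraries held 1304560 to 2759926 counts, so that 1 CPM stood for 1 to 3 reads. Within a group, every library came from a different mouse. The p-values measure the spread of libraries within groups, pooled over all 14 groups with no term for mouse. A further 3 libraries fell under 1000000 counts and were left out, which left blood ST2+ with 4 mice and colon ST2+ with 3. The summed level of 8 T cell and Treg genes was 2855 to 6041 CPM, and Foxp3 was found in all groups. Markers of other cells were present in some groups. The summed level of 11 keratinocyte genes reached 2302 CPM in skin, that of 10 platelet genes 901 CPM in blood, and that of 12 gut epithelium genes 3942 CPM in colon. Itgav shares 634 exon bases with the antisense gene Gm13684 and Itga4 shares 1124 with Cerkl, and how strand was treated in counting is not given in the sources used here. The plot of levels by library shows all 10 genes.

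**Figure D1:**
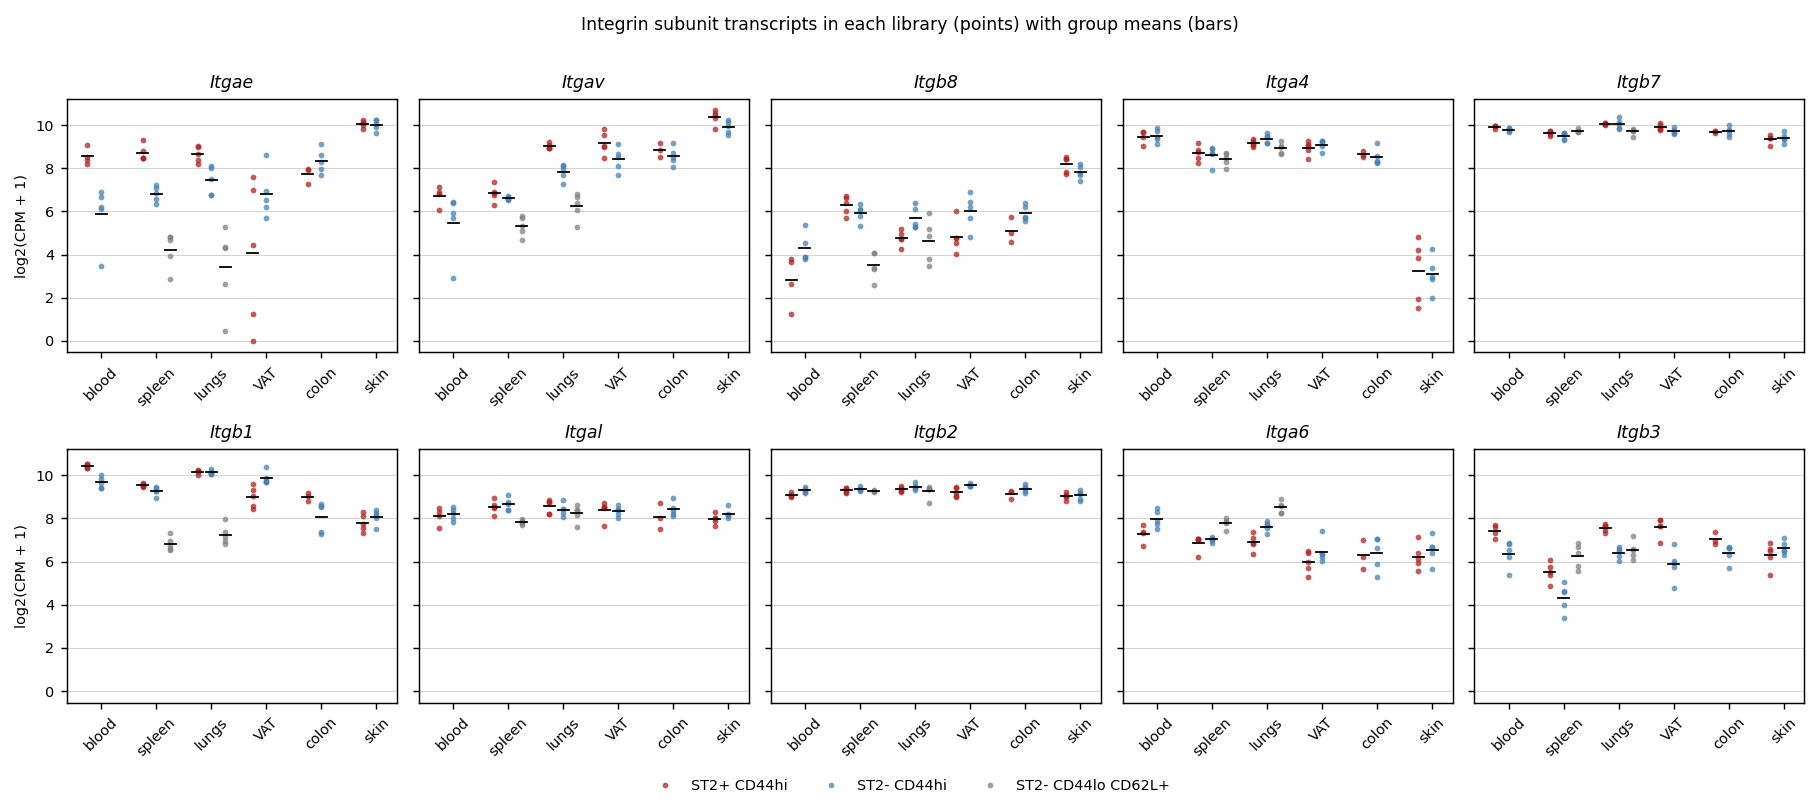
Each panel plots 1 integrin gene, with log2(CPM + 1) on the vertical axis, the 14 groups along the horizontal axis and 1 point for each of the 67 libraries. Itga4 drops in both skin groups (1.86 to 27.5 CPM in ST2+ and 2.93 to 18.2 CPM in ST2-), where Itgae, Itgav and Itgb8 have their highest group means, while Itgb7 and Itgb2 stay within a narrow band in all groups.

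Between tissues, skin was called on 1 side of at least 3 of the other 5 tissues in both populations for 5 of the 10 genes, higher for Itgae, Itgav and Itgb8 and lower for Itga4 and Itgb1. Over the 15 pairs of tissues, 56 of 150 comparisons passed in ST2+ Tregs and 57 of 150 in ST2- Tregs (fold change of at least 1.5 and adjusted p of at most 0.05, edgeR quasi-likelihood test), beside 12.1% and 11.8% of all comparisons over all genes. Of skin against the other 5 tissues, 30 of 50 passed in ST2+ and 28 of 50 in ST2-, beside 22.6% and 22.9% over all genes.

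Itga4, the alpha subunit that serves VCAM-1 and gut homing, was nearly lost from skin. The skin ST2+ libraries of mice 1 to 5 held 17.5, 13.2, 1.86, 27.5 and 2.82 CPM, and the skin ST2- libraries 6.41, 6.74, 9.57, 18.2 and 2.93 CPM. No skin library held more than 41 reads of the gene. In the other 5 tissues the lowest ST2+ library stood at 303 CPM and the lowest ST2- library at 240 CPM, both in spleen, so skin overlapped with no other tissue. Against them the level in skin was lower by 5.04 to 5.87 on the log2 scale in ST2+ (colon, log2 fold change -5.04, SE 0.33, adjusted p = 7.75e-19; blood, -5.87, SE 0.32, adjusted p = 2.77e-22). In ST2- the log2 fold changes ran from -5.48 (colon, SE 0.33, adjusted p = 7.28e-21) to -6.44 (blood, SE 0.33, adjusted p = 6.02e-24). All 90 values in each population under other settings kept these calls. Outside skin the order of Itga4 was blood, lungs, VAT, spleen and colon in both populations, and no neighbours in that order differed past the test. Of pairs further apart, blood was called above spleen and colon, and lungs above colon, in ST2-, and none was called in ST2+. Blood above colon held without any 1 mouse, while the other calls were lost without 1 mouse or another.

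Itgav and Itgb8, whose products form the pair that frees TGF-beta, were highest in skin. Itgav stood at 896, 1515, 1307, 1408 and 1654 CPM in skin ST2+ and at 744, 829, 981, 1151 and 1212 CPM in skin ST2-. Itgav rose in skin against all 5 tissues in both populations, by 1.15 (SE 0.29, adjusted p = 0.00194, VAT) to 3.63 (SE 0.35, adjusted p = 9.04e-13, blood) on the log2 scale in ST2+ and by 1.32 (SE 0.29, adjusted p = 0.000561, colon) to 4.10 (SE 0.33, adjusted p = 9.93e-16, blood) in ST2-. Its libraries overlapped between groups only with VAT in ST2+, where mouse 3 reached 907 CPM. Spleen and blood held the lowest Itgav, at 118 ± 31.6 CPM (SD, n = 5) and 110 ± 31.6 CPM (n = 4) in ST2+, and the difference between these did not pass (adjusted p = 0.95).

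Itgb8 was scarce outside skin, with group means of 0.702 to 7.21 CPM per kilobase against 20.9 and 27.1 in the skin groups. Skin ST2+ libraries held 229, 347, 212, 347 and 365 CPM and skin ST2- libraries 170, 206, 217, 293 and 270 CPM. In blood the ST2+ libraries held 5.32, 11.5, 12.9 and 1.36 CPM and the ST2- libraries 14, 22.5, 12.7, 13.8 and 40.4 CPM. Skin exceeded all other libraries of either population. The difference between skin and the other tissues was 1.91 (SE 0.38, adjusted p = 5.76e-05, spleen) to 5.25 (SE 0.50, adjusted p = 6.02e-13, blood) on the log2 scale in ST2+ and 1.69 (SE 0.38, adjusted p = 0.000616, VAT) to 3.49 (SE 0.41, adjusted p = 4.79e-10, blood) in ST2-. Blood was called lower than all 5 other tissues in both populations, but not all of these calls held. The difference from lungs was lost in ST2- without any 1 of mice 1, 2, 3 and 4 (adjusted p = 0.0775 to 0.233) and in ST2+ without mouse 2 or 5 (adjusted p = 0.0947 and 0.0954). That from spleen was lost in ST2- without mouse 2, 3 or 4 (adjusted p = 0.0596 to 0.071), and that from VAT in ST2+ without mouse 5 (adjusted p = 0.116). With limma and quality weights, lungs, VAT and colon missed against blood in ST2+ (adjusted p = 0.155, 0.198 and 0.0645) and lungs in ST2- (adjusted p = 0.0694).

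Itgae, which codes for CD103, was also highest in skin. It stood at 1019, 1106, 1225, 907 and 1117 CPM in skin ST2+ and at 963, 1058, 1214, 792 and 1212 CPM in skin ST2-. In VAT, ST2+ libraries of mice 1 to 5 held 192, 127, 1.38, 20.7 and 0 CPM. Skin overlapped with no other tissue. It was called higher than all 5 in ST2-, by 1.61 (SE 0.55, adjusted p = 0.0304, colon) to 3.82 (SE 0.61, adjusted p = 7.85e-07, blood) on the log2 scale. In ST2+ it was called against VAT (3.96, SE 0.61, adjusted p = 8.92e-07), colon (2.32, SE 0.69, adjusted p = 0.0122) and blood (1.48, SE 0.59, adjusted p = 0.0484), but missed against spleen (1.32, adjusted p = 0.0532) and lungs (1.38, adjusted p = 0.0606). With mouse as a block the spleen and lung differences passed (adjusted p = 0.0438 and 0.049) and that from blood missed (adjusted p = 0.0504). Without any 1 of mice 2, 3, 4 and 5 the ST2+ difference from blood missed (adjusted p = 0.112, 0.084, 0.136 and 0.108), as did the ST2- difference from colon (adjusted p = 0.0973, 0.0993, 0.101 and 0.0584). Without mouse 3 or 4 the ST2+ difference from colon missed too (adjusted p = 0.1 and 0.062), and without mouse 1 that from spleen passed (adjusted p = 0.0481).

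Itgb1, the beta subunit shared by the receptors for matrix proteins, ran the other way and was low in skin. Skin ST2+ libraries held 275, 312, 214, 159 and 189 CPM and skin ST2- libraries 306, 340, 184, 259 and 287 CPM. The highest ST2+ level was in blood, at 1487, 1297, 1494 and 1299 CPM. Skin was lower than all 5 other tissues in ST2+, from -1.15 (SE 0.23, adjusted p = 0.000213, colon) to -2.60 (SE 0.22, adjusted p = 1.43e-14, blood) on the log2 scale, and lower than 4 of 5 in ST2-. The exception in ST2- was colon, with 153, 364, 406, 376 and 165 CPM and a log2 fold change of -0.09 (SE 0.21, adjusted p = 0.828).

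The skin libraries varied in keratinocyte genes, which summed to 233 to 2302 CPM in ST2+ and 115 to 1650 CPM in ST2-, with all 11 of the list detected somewhere in the series, against 6.83 to 169 CPM in the other tissues. The 7 fibroblast genes summed to 2.56 to 88.1 CPM in skin ST2+ and 44 to 806 CPM in skin ST2-. The part of either list in the skin results was not tested.

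Itgb7, Itgb2 and Itgal, the leukocyte-specific subunits, hardly differed between tissues. Itgb7 group means ran from 663 to 1068 CPM in ST2+ and from 689 to 1074 CPM in ST2-, and only the difference between skin and lungs was called (-0.69, SE 0.10, adjusted p = 1.04e-07 in ST2+ and -0.64, SE 0.10, adjusted p = 4.04e-07 in ST2-). The latter fell under the fold set for a call without mouse 1 (-0.54). Itgb2, with means of 522 to 654 CPM in ST2+ and 538 to 748 CPM in ST2-, had no edgeR call in 30 comparisons, 10 of which had an unadjusted p under 0.05, and none by DESeq2 or limma. Itgal had 1 call, skin below lungs in ST2+ (-0.60). It fell under the fold with mouse as a block (-0.57), DESeq2 (-0.56), its size factors (-0.56) and limma (-0.49), and it missed without mouse 1, 2 or 3 (adjusted p = 0.072 to 0.143).

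Itga6, a laminin receptor subunit, was highest in blood, at 104, 206, 159 and 162 CPM in ST2+ and 215, 235, 310, 355 and 184 CPM in ST2-. It was called in 3 of 15 pairs in ST2+ and 7 of 15 in ST2-, with blood on the higher side in 2 and 4 of these. Without 1 mouse or another, 2 of the 3 and 3 of the 7 were lost. Those kept were VAT below blood in ST2+ and, in ST2-, VAT, colon and skin below blood and skin below lungs. Blood libraries also held the most platelet transcripts (109 to 901 CPM over 10 genes), and platelets carry the Itga6 and Itgb1 subunits. Their part in the blood levels of these genes was not tested. Itgb3 was lowest in spleen. The spleen ST2+ libraries held 40.2, 53.0, 28.1, 44.9 and 65.6 CPM and the ST2- libraries 15, 32.2, 23.5, 22.8 and 9.49 CPM, and spleen was called lower than all 5 other tissues in both populations. In ST2+ the difference from skin was lost without mouse 2, 3 or 4 (adjusted p = 0.0671, 0.112 and 0.101) and that from colon without mouse 4 (adjusted p = 0.0501).

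Per kilobase of exon, the 5 alpha subunits made up different mixtures in each group. Itgae took 57.5 ± 4.76% (SD, n = 5) of their summed CPM per kilobase in skin ST2+ and 60.3% in skin ST2-, while Itga4 took 0.235% and 0.174%. In the other groups Itga4 took 13.6% (colon ST2-) to 35.6% (blood ST2-). In central Tregs Itgae took 4.68% in spleen and 2.39% in lungs. Of the 5 beta subunits, Itgb7 took the largest mean share in each group, from 38.1% in VAT ST2- to 55.9% in spleen central Tregs. Itgb8 took 5.34% in skin ST2+ and 4.02% in skin ST2-, against 0.0764% to 1.04% elsewhere. The shares are of transcripts and do not say which pairs of proteins form.

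**Figure D2:**
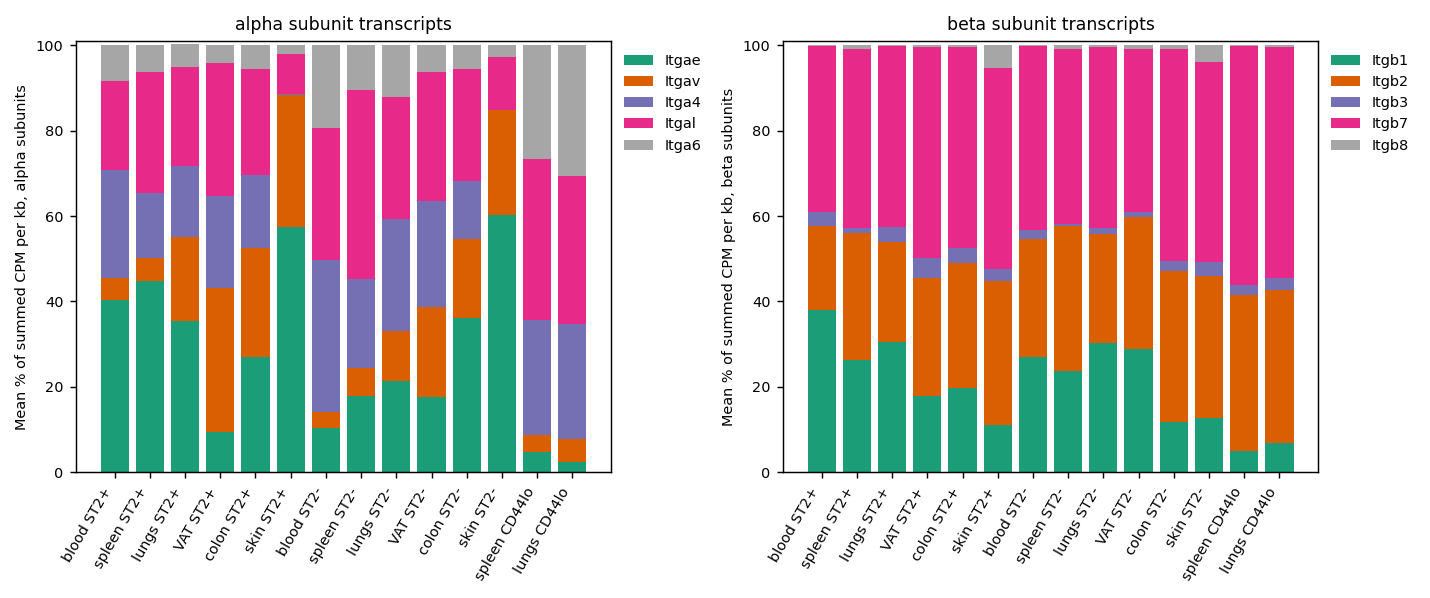
Stacked bars give, for each of the 14 groups, the mean percent of summed CPM per kilobase taken by each of 5 alpha subunits and, separately, 5 beta subunits. In both skin groups Itgae takes 57.5% and 60.3% of the alpha total and Itga4 under 1%, and Itgb7 is the largest beta share in every group.

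Between ST2+ and ST2- Tregs of the same tissue, 7 of 60 comparisons passed, 6 with the higher level in ST2+. Over all genes 1.42% of such comparisons passed. The members were called 3 times in blood (background 4.04%), 2 times in VAT (3.12%) and 2 times in lungs (0.782%). There was no edgeR call in spleen (0.319%), colon (0.0683%) or skin (0.213%). In these 3 tissues 2, 2 and 0 had an unadjusted p under 0.05, DESeq2 called 1, 0 and 0, and limma with quality weights 1, 1 and 0. Itgb3 had 3 of the calls, Itgb1 had 2, and Itgae and Itgav had 1 each. With mouse as a block 9 passed.

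Itgb3, the beta subunit that pairs with Itgav, was higher in ST2+ Tregs of VAT, lungs and blood. In VAT the ST2+ libraries held 115 to 240 CPM (median 198) and the ST2- libraries 26.3, 113, 60.6, 52.2 and 64.9 CPM, with no overlap and a log2 fold change of 1.65 (SE 0.29, adjusted p = 0.000116). This call held under all 18 other settings, with log2 fold changes from 1.37 to 1.99. In lungs, ST2+ libraries held 199, 212, 175, 200 and 158 CPM and ST2- libraries 96.4, 88.7, 75.5, 100 and 64.7 CPM (1.15, SE 0.29, adjusted p = 0.0266). The lung groups did not overlap either, but the adjusted p was 0.0532 to 0.186 without any 1 of mice 2, 3, 4 and 5. In blood, ST2+ libraries held 131, 209, 158 and 194 CPM and ST2- libraries 110, 40, 117, 91.8 and 73.1 CPM (1.0, SE 0.30, adjusted p = 0.0387). The blood call was lost with mouse as a block (0.92, adjusted p = 0.0559) and without any 1 of mice 2, 3, 4 and 5 (adjusted p = 0.0923 to 0.158). Sorted cells as a covariate (0.81, adjusted p = 0.121), libraries of at least 100 cells (0.90, adjusted p = 0.0916) and the fit on the 2 groups (1.01, adjusted p = 0.141) also lost it. It held under 8 of 18 other settings. Blood ST2+ libraries came from 55 to 220 cells, and the highest value, 209 CPM, was in the library of 55 cells. In spleen the log2 fold change was 1.18 (SE 0.30) with an adjusted p of 0.0577, and with mouse as a block it passed (1.21, adjusted p = 0.043). Without mouse 2 it passed as well (1.35, adjusted p = 0.042).

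Itgb3 is also abundant on platelets, and 10 platelet genes had a higher median sum in blood ST2+ (643 CPM) than in blood ST2- (142 CPM). These genes summed to 272 to 901 CPM in blood ST2+ and 109 to 356 CPM in blood ST2-, and their part in the blood result was not tested. In VAT they summed to 0 to 41.5 CPM in ST2+ and 0 to 15.9 CPM in ST2-, and Itga2b, which codes for the platelet partner of Itgb3, was at 0 reads in all 5 VAT ST2+ libraries. In lungs they summed to 0 to 82.9 CPM in ST2+ and 0 to 179 CPM in ST2-. The lung ST2+ library without any platelet reads, that of mouse 5, held 158 CPM of Itgb3. The VAT ST2+ library of mouse 2 had none either and held 198 CPM. The part of platelet transcripts in the VAT and lung differences was not tested.

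**Figure D3:**
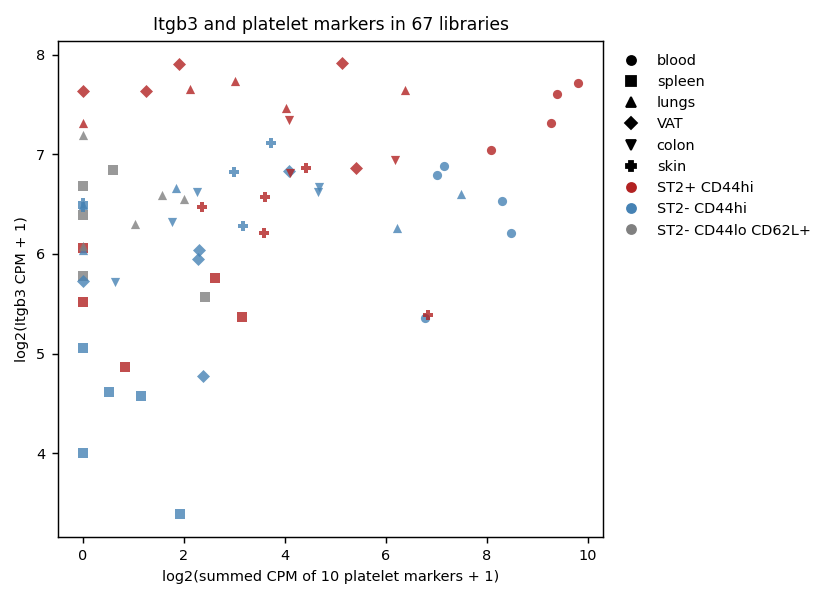
Each of the 67 libraries is a point, with the summed CPM of 10 platelet genes on the horizontal axis and Itgb3 CPM on the vertical axis, both on log2 scales. The blood libraries lie at the right (109 to 901 CPM of platelet genes). The VAT and lung ST2+ libraries lie at 0 to 82.9 CPM of platelet genes and 115 to 240 CPM of Itgb3.

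Itgae was higher in ST2+ Tregs of blood. The ST2+ libraries held 369, 548, 292 and 331 CPM and the ST2- libraries 100, 10, 68.7, 72.4 and 118 CPM, a log2 fold change of 2.38 (SE 0.59, adjusted p = 0.0104). The groups did not overlap, and the call was lost without mouse 2 (adjusted p = 0.0774) or mouse 3 (adjusted p = 0.089). In spleen the ST2+ libraries held 443, 359, 636, 354 and 361 CPM against 93.1, 79.9, 137, 116 and 150 CPM. In lungs they held 332, 527, 403, 293 and 508 CPM against 107, 279, 183, 106 and 261 CPM. Neither pair of groups overlapped, but with a spread shared by all 14 groups the adjusted p was 0.175 in spleen (1.90, SE 0.56) and 0.464 in lungs (1.14, SE 0.55). When each pair of groups was fitted alone, a setting chosen after the data were seen, both passed (adjusted p = 0.000295 and 0.0233), and limma with quality weights also called both (1.8e-06 and 0.00277). In VAT the level ran from 0 to 192 CPM in ST2+ and from 50.9 to 389 CPM in ST2- (-1.09, SE 0.56, adjusted p = 0.306), and in skin it was 1075 ± 119 against 1048 ± 178 CPM (SD, n = 5; 0.04, SE 0.53, adjusted p = 1).

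Itgb1 differed in opposite directions in blood and VAT. In blood the ST2+ libraries held 1487, 1297, 1494 and 1299 CPM and the ST2- libraries 686, 678, 792, 917 and 1039 CPM, a log2 fold change of 0.76 (SE 0.21, adjusted p = 0.0252). In VAT the ST2+ libraries held 766, 529, 375, 640 and 341 CPM and the ST2- libraries 817, 1323, 945, 854 and 835 CPM, a log2 fold change of -0.85 (SE 0.20, adjusted p = 0.00759). Neither pair of groups overlapped. The blood call was lost without mouse 1, 2 or 4 (adjusted p = 0.0565, 0.144 and 0.0879) and the VAT call without mouse 2 or 5 (-0.69, adjusted p = 0.122, and -0.79, adjusted p = 0.0515). The VAT ST2- libraries came from 93 to 220 cells and the ST2+ ones from 220, and the highest value, 1323 CPM, was in the library of 93 cells. With libraries of at least 100 cells alone, chosen after the data were seen, the VAT difference was -0.70 (adjusted p = 0.0519). The fit on the 2 groups compared, also added after that, gave -0.84 in VAT (adjusted p = 0.117). In blood the 10 platelet genes summed to 272 to 901 CPM in ST2+ and 109 to 356 CPM in ST2-. Their part in the Itgb1 difference was not tested. In colon the 3 ST2+ libraries, at 440, 518 and 576 CPM, lay above all 5 ST2- libraries, at 153 to 406 CPM (0.80, SE 0.23, adjusted p = 0.268). Limma with quality weights called this colon difference (0.91, adjusted p = 0.0156), while DESeq2 did not (0.83, adjusted p = 0.0627). The 7 fibroblast genes summed to 366 to 1256 CPM in colon ST2+ and 6.82 to 769 CPM in colon ST2-, and their part in this difference was not tested.

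Itgav was higher in ST2+ Tregs of lungs, at 485, 533, 496, 595 and 494 CPM against 155, 283, 206, 246 and 276 CPM (1.16, SE 0.29, adjusted p = 0.0295). The groups did not overlap, and the adjusted p was 0.0995 to 0.214 without any 1 of mice 2, 3, 4 and 5. In blood and VAT its log2 fold changes of 0.93 (adjusted p = 0.0851) and 0.75 (adjusted p = 0.143) missed. With mouse as a block both passed (0.88, adjusted p = 0.049, and 0.81, adjusted p = 0.0422). Limma with quality weights called VAT (0.83, adjusted p = 0.018) but not blood (adjusted p = 0.437), and DESeq2 called neither (adjusted p = 0.0526 in blood and 0.141 in VAT). Itgb8, the TGF-beta partner of Itgav, had the opposite sign in those 3 tissues and missed in each. Its log2 fold changes were -1.39 in blood (adjusted p = 0.0678), -1.0 in lungs (adjusted p = 0.298) and -1.23 in VAT (adjusted p = 0.0572). Itgb8 passed in blood without mouse 4 (-1.85, adjusted p = 0.0494) and in VAT without mouse 5 (-1.60, adjusted p = 0.0199). DESeq2 called it in both (adjusted p = 0.0236 and 0.0308), while limma with quality weights called neither (adjusted p = 0.471 and 0.0517). The VAT difference also passed with libraries of at least 100 cells (adjusted p = 0.0251) and in limma with mouse as a block (adjusted p = 0.0287). Itga6 had no call by edgeR. It stood at 158 against 260 CPM in ST2+ and ST2- Tregs of blood (-0.72, SE 0.30, adjusted p = 0.162) and at 121 against 198 CPM in those of lungs (-0.71, SE 0.28, adjusted p = 0.314), and the groups overlapped in both. Limma with quality weights called both (-0.92, adjusted p = 0.0134, and -0.72, adjusted p = 0.03), and the fit on the 2 groups compared called lungs (adjusted p = 0.0422). In the other 4 tissues its log2 fold changes were -0.12 to -0.52 with no call. The 4 genes Itga4, Itgb7, Itgal and Itgb2 had log2 fold changes within -0.32 and 0.52 in all 6 tissues, with no call in 24 comparisons by edgeR, DESeq2 or limma and 4 at an unadjusted p under 0.05.

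**Figure D4:**
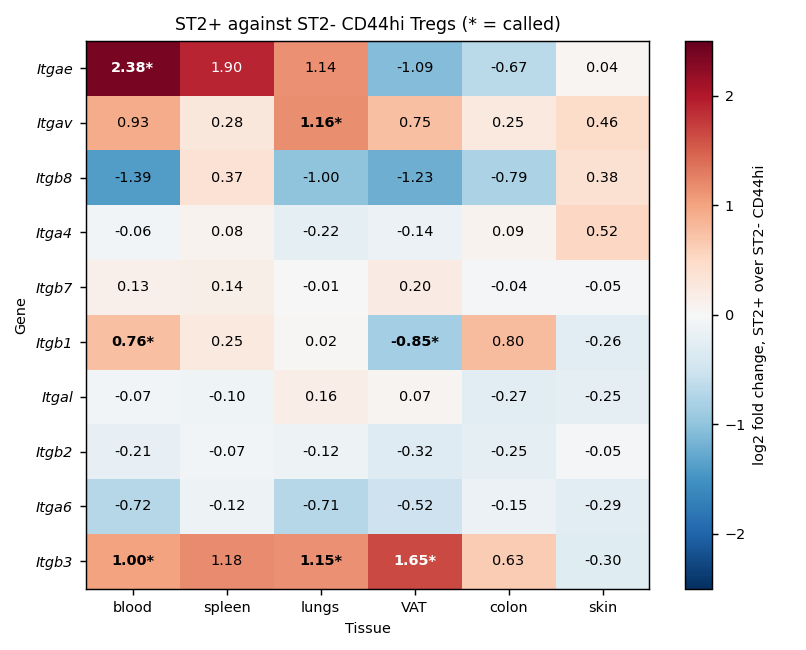
The heat map gives the log2 fold change of ST2+ over ST2- Tregs for the 10 genes in 6 tissues, with the 7 comparisons that passed marked. Itgb3 is above 0 in every tissue but skin (-0.30), and Itgb1 runs from 0.80 in colon to -0.85 in VAT.

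Whether the ST2 difference depended on the tissue was tested for each gene with 1 test over the 6 tissues (quasi-likelihood F test with adjusted p of at most 0.05). It passed for Itgb1 (F = 8.7, adjusted p = 0.00165), Itgae (F = 5.86, adjusted p = 0.0219) and Itgb3 (F = 5.26, adjusted p = 0.039), 3 of 10 beside 1.43% of all genes. Itgb1 passed without any 1 mouse (adjusted p = 0.00211 to 0.0369). Itgae missed without mouse 2, 3, 4 or 5 (adjusted p = 0.0732, 0.364, 0.177 and 0.0503) and Itgb3 without mouse 1, 3, 4 or 5 (adjusted p = 0.193, 0.366, 0.24 and 0.183). For Itgb8 the adjusted p was 0.109.

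Effector and central Tregs were compared in spleen and lungs. Of 40 comparisons, 17 were higher and 4 lower in CD44hi than in CD44lo CD62L+ Tregs, beside 6.04% higher and 1.40% lower, or 7.44% in all, over all genes. The 4 comparisons share the central libraries of each tissue, so they are not independent. By comparison the calls were 6 in spleen ST2- (background 5.03%), 6 in spleen ST2+ (7.17%), 4 in lungs ST2- (5.53%) and 5 in lungs ST2+ (12.0%).

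Itgae, Itgav and Itgb1 rose in all 4. Itgae was nearly absent from central Tregs, at 27.1, 27.0, 24.4, 6.2 and 14.4 CPM in spleen and 0.368, 19.6, 18.7, 5.25 and 37.9 CPM in lungs. It rose by 2.52 (SE 0.61, adjusted p = 0.00439) and 4.42 (SE 0.64, adjusted p = 4.32e-07) on the log2 scale in spleen ST2- and ST2+, and by 3.51 (SE 0.64, adjusted p = 6.7e-05) and 4.65 (SE 0.66, adjusted p = 1.55e-07) in lungs. Without mouse 4 the spleen ST2- difference missed (2.31, adjusted p = 0.0595). Itgb1 stood at 106, 123, 159, 91.9 and 94.7 CPM in central Tregs of spleen and at 138, 113, 248, 124 and 167 CPM in those of lungs. It rose by 2.44 (SE 0.22, adjusted p = 4.58e-13) to 2.85 (SE 0.22, adjusted p = 5.67e-16), a narrow range, and held under all settings. Itgav stood at 53.5, 39.7, 32.9, 24.3 and 51.6 CPM in central Tregs of spleen and 37.9, 102, 66.5, 83.5 and 113 CPM in those of lungs. Its log2 fold changes were 1.25 (SE 0.31, adjusted p = 0.00549) in spleen ST2-, 1.53 in spleen ST2+ and lungs ST2-, and 2.69 (SE 0.31, adjusted p = 6.82e-10) in lungs ST2+. That in spleen ST2- missed without mouse 3 (adjusted p = 0.0526) or 4 (adjusted p = 0.082). In none of these 12 called comparisons, which share the central libraries, did the groups overlap. The share of all genes without overlap is not given here.

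Itgb8 and Itgal rose in spleen alone among the called comparisons. Itgb8 stood at 9.16, 9.53, 15.9, 16.0 and 5.05 CPM in central Tregs of spleen and rose by 2.48 (SE 0.41, adjusted p = 9.8e-06) in ST2- and 2.84 (SE 0.41, adjusted p = 4.15e-07) in ST2+. In lungs the central libraries held 9.93, 35.1, 59.5, 13.1 and 28.3 CPM, and the log2 fold changes were 0.89 (adjusted p = 0.188) and -0.11 (adjusted p = 0.929); the former passed without mouse 3 (1.43, adjusted p = 0.045). The difference between spleen and lungs in this effect was not tested. Itgal rose by 0.84 (SE 0.20, adjusted p = 0.00279) and 0.74 (SE 0.20, adjusted p = 0.0083) in spleen ST2- and ST2+, the latter missing without mouse 2 (adjusted p = 0.0527).

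Itga6 was lower in effector Tregs. Central libraries held 171, 236, 262, 220 and 224 CPM in spleen and 303, 376, 477, 300 and 394 CPM in lungs, above every effector library of the same tissue. The log2 fold changes were -1.60 (SE 0.28, adjusted p = 1.89e-05) in lungs ST2+, -0.90 (SE 0.28, adjusted p = 0.0368) in lungs ST2-, -0.90 (SE 0.28, adjusted p = 0.0317) in spleen ST2+ and -0.78 (SE 0.28, adjusted p = 0.0945) in spleen ST2-. Without any 1 of mice 2, 3, 4 and 5 the adjusted p was 0.0732 to 0.141 in lungs ST2- and 0.0763 to 0.101 in spleen ST2+. Without mouse 1 the spleen ST2- difference passed (adjusted p = 0.0249).

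Itgb3 had 1 call in each direction. In spleen, central libraries held 53.9, 46.4, 102, 114 and 83.1 CPM, and the level in ST2- effector Tregs was lower (-1.96, SE 0.30, adjusted p = 2.61e-06). In lungs, central libraries held 66.6, 92.9, 145, 77.7 and 95.7 CPM, and the level in ST2+ effector Tregs was higher (0.98, SE 0.28, adjusted p = 0.0124; without mouse 4, 0.89, adjusted p = 0.105). Neither pair of groups overlapped. In spleen ST2+ the log2 fold change was -0.78 (adjusted p = 0.0892), and without mouse 2 it passed (-1.0, adjusted p = 0.0288). Platelet genes summed to 0 to 4.37 CPM in central Tregs of both tissues, and their part in these differences was not tested. Itga4, Itgb7 and Itgb2 had no call in 12 comparisons by edgeR, DESeq2 or limma, with 3 at an unadjusted p under 0.05. Itgb7 in lungs had a log2 fold change of 0.35 (adjusted p = 0.0135) in ST2- and 0.34 (adjusted p = 0.00874) in ST2+, under the fold set for a call.

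**Figure D5:**
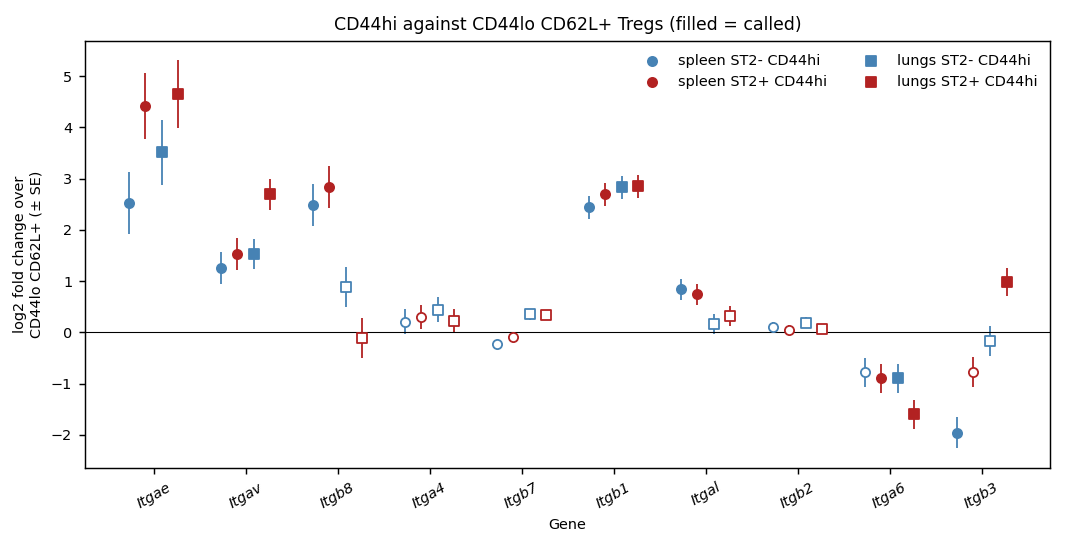
Points give the log2 fold change of effector (CD44hi) over central (CD44lo CD62L+) Tregs with its SE for the 10 genes in spleen and lungs, ST2- and ST2+, with filled points for the 21 comparisons that passed. Itgae, Itgav and Itgb1 lie above 0 in all 4, and Itga6 lies below 0 in all 4 (-0.78 to -1.60).

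Between the central Tregs of lungs and spleen, 1 of 10 genes passed, beside 3.16% of all genes. Itgb8 was higher in lungs by 1.39 on the log2 scale (SE 0.41, adjusted p = 0.0349), though its groups overlapped, and the call was lost without mouse 2, 3 or 5 (adjusted p = 0.202, 0.249 and 0.13). Limma with quality weights and the fit on the 2 groups compared did not call Itgb8 (adjusted p = 0.107 and 0.139). Both called Itga6 instead (adjusted p = 0.000106 and 0.00584). By edgeR Itga6 missed (0.73, SE 0.28, adjusted p = 0.152), and its groups did not overlap. Itgav missed (0.99, adjusted p = 0.0619), and with mouse as a block it passed (0.89, adjusted p = 0.0406). Without mouse 1 it passed as well (1.29, adjusted p = 0.000339).

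Of the remaining 17 integrin subunit genes of the mouse, 13 passed the filter on low counts, and Itga8, Itgad, Itgb6 and Itgb2l did not. None of the 13 was called between ST2+ and ST2- in 78 comparisons by edgeR, where 8 had an unadjusted p under 0.05, while DESeq2 called 1 and limma with quality weights 3. Between effector and central Tregs 10 of 52 (19.2%) were called, all higher in effector cells, beside 7.44% over all genes. Itga1, a collagen receptor subunit, had 0 reads in all 10 central libraries and 4 of these calls. Its mean was 18.6 CPM in lungs ST2+, at least 69.2-fold above the level that 3 reads over the central group would give, and 3.89 CPM in spleen ST2-, at least 15.1-fold. In the latter 2 of 5 libraries were at 0, and without the highest, at 13 CPM, the mean was 1.61 CPM, at least 6.28-fold. Both spleen calls of Itga1 were lost without most single mice, ST2- without mouse 2, 3, 4 or 5 (adjusted p = 0.0635 to 0.225) and ST2+ without any 1 of the 5 (adjusted p = 0.0565 to 0.154), and that in lungs ST2- without mouse 3 (adjusted p = 0.0682). Itga2, another collagen receptor subunit, rose in lungs ST2- (2.86, SE 0.90, adjusted p = 0.0413; lost without mouse 1, 3, 4 or 5, adjusted p = 0.0623 to 0.317) and ST2+ (3.76, SE 0.92, adjusted p = 0.00232). Itga7 (8.93 and 16.6 CPM in spleen ST2- and ST2+) and Itgb5 (6.85 CPM in spleen ST2+ and 7.92 CPM in lungs ST2-) had 2 calls each against 0 reads in the central group. The Itgb5 mean in lungs ST2- rested on 1 library at 27.2 CPM (3.1 CPM without it). Its calls were lost without mouse 1, 3, 4 or 5 in lungs ST2- (adjusted p = 0.0708 to 0.146) and without mouse 3, 4 or 5 in spleen ST2+ (adjusted p = 0.0909 to 0.0929), and that of Itga7 in spleen ST2- without mouse 2 or 4 (adjusted p = 0.0688 and 0.0511). Itga7 also passed between central Tregs of lungs and spleen, on 1 lung library at 21.1 CPM (mean 4.98 CPM, 0.958 CPM without it), and this call was lost without mouse 2, 3, 4 or 5 (adjusted p = 0.095 to 0.44). Between tissues, Itga3, a laminin receptor subunit, stood at 65.2 ± 23 CPM (SD, n = 5) in skin ST2+ and 61 ± 16.3 CPM in skin ST2-, higher than in blood and spleen in both and than in lungs in ST2-. In ST2+ the difference from spleen was lost without any 1 mouse (adjusted p = 0.0528 to 0.0851). The keratinocyte genes summed to 233 to 2302 CPM in skin ST2+ and 115 to 1650 CPM in skin ST2-. Their part in the Itga3 values was not tested. Itga2b was highest in blood, at 85.7 ± 49.8 CPM (n = 4) in ST2+. Itgax and Itgam, subunits of myeloid cells, were at 12.5 ± 9.55 and 4.07 CPM in colon ST2+ (n = 3), where 9 monocyte, macrophage and neutrophil genes summed to 825 to 958 CPM against 29 to 209 CPM in colon ST2-. Their part in the colon values was not tested. Itga9 was called in 3 tissue pairs of ST2+, colon above blood and lungs and skin above lungs, and Itga11 in 2, colon above blood and VAT. Colon ST2+ held 24.1 ± 16.7 CPM of Itga9 and 5.07 ± 4.55 CPM of Itga11 (SD, n = 3). The fibroblast genes were also highest there, at 366 to 1256 CPM against 0 to 88.1 CPM in the other ST2+ groups, and their part was not tested. Each of these 5 calls was lost without at least 4 of the 5 mice, left out singly. Itga5, Itga10 and Itgb4 were called in no tissue pair.

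Genes that act with integrins were counted by list, and the shares called are read beside 1.42% of ST2 and 7.44% of effector comparisons over all genes. The 22 genes for activation from inside the cell, such as talin, kindlin and Rap1, had 0 higher and 3 lower of 132 ST2 comparisons (2.27%) and 0 higher and 6 lower of 88 effector comparisons (6.82%), both near the background. Among them Rapgef1, an exchange factor for Rap1, was lower in ST2+ Tregs of VAT (83.7 against 149 CPM; -0.82, SE 0.21, adjusted p = 0.0122), a call lost without mouse 2, 4 or 5 (adjusted p = 0.0508 to 0.18). The 6 genes of proteins that keep integrins inactive had no edgeR call in 36 and 24, with 5 and 7 at an unadjusted p under 0.05, no DESeq2 call and 0 and 3 limma calls. The 21 genes of the adhesion complex had 2 higher and 5 lower of 126 ST2 comparisons (5.56%) and 1 higher and 2 lower of 84 effector comparisons (3.57%). Actn1, which links integrins to actin, had 3 of the 5. It was lower in ST2+ Tregs of blood (0.452 to 14.9 against 38 to 70.4 CPM; -3.00, SE 0.59, adjusted p = 0.000679), of lungs (-2.06, SE 0.53, adjusted p = 0.0319; lost without mouse 2, 3, 4 or 5, adjusted p = 0.0913 to 0.335) and of VAT (0 to 0.811 against 3.2 to 10.9 CPM; -4.77, SE 0.75, adjusted p = 1.42e-05).

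The 7 tested genes for carriers and processing of latent TGF-beta, on which the Itgav and Itgb8 pair acts, had 4 higher and 2 lower of 42 ST2 comparisons (14.3%) and 2 higher and 1 lower of 28 effector comparisons (10.7%). Lrrc32, which codes for GARP and displays latent TGF-beta on Tregs, was lower in ST2+ Tregs of blood (73.9 against 200 CPM; -1.43, SE 0.43, adjusted p = 0.0387) and VAT (99 against 345 CPM; -1.79, SE 0.40, adjusted p = 0.00284). Nrros, a related carrier, was higher in lungs (148 against 77.3 CPM; 0.93, SE 0.23, adjusted p = 0.0258) and VAT (203 against 109 CPM; 0.89, SE 0.23, adjusted p = 0.0136). Furin, a protease that cuts the TGF-beta precursor, was higher in lungs (1.49, SE 0.39, adjusted p = 0.0361) and VAT (2.39, SE 0.40, adjusted p = 4.84e-05). Without 1 mouse, the calls of Furin in lungs (any mouse, adjusted p = 0.0596 to 0.252), Nrros in lungs (mouse 1, 4 or 5, 0.125 to 0.291) and VAT (mouse 2, 3 or 4, 0.0583 to 0.0896) and Lrrc32 in blood (mouse 2, 3, 4 or 5, 0.08 to 0.239) were lost. The median log2 fold change over all genes was within -0.01 and 0.03 in the 6 ST2 comparisons.

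Of the 15 tested ligand genes, 1 of 90 ST2 comparisons (1.11%) passed, Vwf in VAT, which rested on 1 ST2- library at 51.4 CPM, and 10 of 60 effector comparisons (16.7%) were higher. The 13 membrane partners had 1 higher and 2 lower of 78 (3.85%), and 10 higher and 1 lower of 52 (21.2%). Cd82, a tetraspanin, was higher in ST2+ Tregs of blood (440 against 249 CPM; 0.82, SE 0.16, adjusted p = 0.000434) and in effector Tregs in all 4 comparisons (1.13 to 1.49). The 11 other homing genes had 3 higher and 2 lower of 66 ST2 comparisons (7.58%). Cd44, the hyaluronan receptor used in the sort of effector and central cells, was higher in ST2+ Tregs of blood (269 against 140 CPM; 0.94, SE 0.21, adjusted p = 0.00288) and VAT (613 against 296 CPM; 1.05, SE 0.20, adjusted p = 0.000283).

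For each member, the 3 tested genes with the most similar profile were found by Pearson's r of mean log2 CPM over the 14 groups. The groups share mice, and r is given as a description. Itgae was closest to Ccr6 (r = 0.93), Maged1 (0.92) and Sla2 (0.92). Itgav went with Ell2 (0.983), Ghitm (0.979) and Mlf1 (0.976), and Itgb8 with Slc5a3 (0.938), Marcksl1 (0.919) and Tnfrsf1b (0.918). The profile of Itga4 was most like those of Gimap7 (0.98), Gimap3 (0.976) and Ssu72 (0.974), and that of Itgb7 like Lbr (0.936), Gnal (0.906) and Lsp1 (0.897). For Itgb1 the genes were Zbtb32 (0.953), Gprin3 (0.923) and Dut (0.92). Itgal was less close to any gene, with 6330403K07Rik (0.835), Prss41 (0.811) and Fpgt (0.809), as was Itgb3, with Thra (0.868), Gabarapl2 (0.816) and Trip11 (0.8). Itgb2 was closest to Tcf3 (0.882), Trip4 (0.86) and Orc3 (0.847), and Itga6 to Rapgef6 (0.963), Galnt10 (0.963) and Nfrkb (0.955). Among the members themselves, r was 0.676 between Itgav and Itgb8, 0.753 between Itga4 and Itgb7 and 0.575 between Itgal and Itgb2, each the highest of the other members for the first-named gene.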

How the data were processed

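Tregs of 14 groups were profiled by RNA-seq in 5 mice (70 libraries). The authors deposited whole-number counts of reads per gene, not normalised. Per the labels, CASAVA 1.8.2, STAR, Picard, SAMtools and HTSeq 0.4.1 and the build GRCm38 were used. Counting mode, strand setting and duplicate handling were not given in the sources used here. Amplified reads without molecular identifiers are not independent molecules. Gene types and coordinates came from the GENCODE M21 annotation (53274 of 53465 IDs matched) and promoters from RefSeq.

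Libraries above 1000000 counts (67 of 70) were kept, with TMM scaling. The filter on low counts left 13173 protein-coding genes, each of which reached 1 CPM in 10% of libraries. The main test was edgeR 4.0.16 quasi-likelihood (R 4.3.3) with all 14 groups in 1 fit and Benjamini-Hochberg adjustment over all genes tested. A call needed a fold change of 1.5 and an adjusted p of 0.05. Replicate numbers name mice, and each mouse gave all groups. Over 9207 genes, deviations of libraries of the same mouse had a mean correlation of 0.0834 (27 pairs, lowest 0.00628) against -0.02 for different mice (108 pairs), and mouse was fitted as a block as an alternative. Other alternatives were limma 3.58.1 voomWithQualityWeights, DESeq2 1.42.0, its size factors, other gene filters, all gene types, all 70 libraries, sorted cells as a covariate, glmTreat and leaving out each mouse. Libraries of at least 100 sorted cells, and fits on the 2 groups compared, were added after seeing the data. No 2 libraries of a group were identical (129 pairs). The tests were tried on simulated data.

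The members and lists were chosen with earlier results of these data known. All 10 members are described. From each list, genes called in at least 2 of 6 ST2 comparisons are named, or else the called gene with the smallest adjusted p, and all other integrin subunits that passed the filter and the 3 most similar genes per member. The 2 promoters shown were chosen after the tissue results were seen.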

Additional observations from a re-analysis of the deposited data

Results flagged for a closer look

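Single libraries stood apart from the rest of their group, by Dixon's test at the 95% level, in 10 of 130 sets of a gene and a group of 4 or 5 libraries, where chance gives about 1 in 20. In VAT these were Itgae in ST2- mouse 1 (389 CPM, next 122), Itgb8 in ST2+ mouse 5 (63.9 CPM, next 26.4), Itgb1 in ST2- mouse 2 (1323 CPM, next 945), Itgal in ST2+ mouse 2 (197 CPM, next 361) and Itga6 in ST2- mouse 3 (168 CPM, next 79.7). In lungs they were Itgb1 in ST2+ mouse 1 (1017 CPM, next 1163) and Itgb2 in central mouse 4 (421 CPM, next 657). The others were Itga4 in colon ST2- mouse 5 (583 CPM, next 378), Itgal in skin ST2- mouse 1 (392 CPM, next 295) and Itga6 in spleen ST2+ mouse 1 (74.3 CPM, next 129).

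The difference between ST2+ and ST2- Tregs depended on the tissue for Itgb1 (adjusted p = 0.00165), Itgae (adjusted p = 0.0219) and Itgb3 (adjusted p = 0.039, edgeR quasi-likelihood F test).

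In the 3 libraries left out for low depth, members were found above 3 reads. The blood ST2+ library of mouse 1 (488666 counts) held all 10 genes, among them Itgb1 at 1784 CPM of its total and Itgae at 71.6 CPM, the latter below the 4 blood ST2+ libraries kept (292 to 548 CPM). The colon ST2+ library of mouse 5 (62333 counts) held 9 genes, and that of mouse 2 (3582 counts) held 1 gene, Itgb2.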

How the results depend on the processing

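Of 28 called comparisons of single genes (ST2 and effector against central), 451 of 504 values under 18 alternatives kept their call, 53 fell short of the threshold and 0 reversed. The 7 ST2 calls became 13 with limma quality weights, 13 with quality weights and mouse as a replicate block, 1 with glmTreat, which tests against the fold of 1.5, and 2 to 6 without 1 mouse. With the replicate block alone there were 9, and the block changed no effector call. The 25 ST2 calls over the pathway lists became 14 with all 70 libraries, 4 with glmTreat, 15 with fits on the 2 groups compared and 12 to 21 without 1 mouse. The single call between central Tregs became 2 with DESeq2, 0 with all 70 libraries, 2 with the replicate block, 2 with quality weights and the block, 0 with glmTreat and 0 to 2 without 1 mouse. That single call was Itgb8, and the 2 with quality weights and the block were Itgav and Itga6. With quality weights alone, and with fits on the 2 groups compared, Itga6 was called in place of Itgb8. The 3 genes whose ST2 difference depended on tissue became 1 with all 70 libraries and 1 to 2 without 1 mouse. Leaving out a mouse lowers the number of samples, and glmTreat asks for a larger fold by construction; for the other settings the cause was not tested. Tissue calls stayed at 40 to 62 in ST2+ and 43 to 64 in ST2- under the alternatives. Depth limits Itga4 in skin, where libraries held 3 to 41 reads.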
